A study of Homo sapiens with 12 samples.

Results

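In HepG2/C3A cells, 1285 stretches of chromatin under 50 kb wide carried peaks of histone H3 lysine 27 trimethylation (H3K27me3) in all 4 H3K27me3 libraries and overlapped no RefSeq protein-coding gene body. They were found by merging overlapping peaks of the 4 libraries on chromosomes 1 to 22, X and Y, which gave 16111 regions, of which 4169 held at least 1 bp of a peak from every library. Of these 4169, 2157 were under 50 kb and overlapped a protein-coding gene, 727 were at least 50 kb wide, and the remaining 1285 are called intergenic regions here. The regions were selected on measured values, namely the presence of H3K27me3 peaks in these 4 libraries and their merged width, so all H3K27me3 values of these libraries are given as description with no test.

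HepG2/C3A is a subline of a human hepatocellular carcinoma cell line, and no group stands for normal liver. Chromatin was profiled by CUT&Tag, in which an antibody directs a transposase to its target and the released fragments are sequenced. Control cells and cells given 10 mM sodium succinate for 48 h, in the same glucose-rich medium with serum, were each profiled with an antibody against H3K27me3 and with one against succinylated lysine on any protein (Ksu), with 2 biological replicates of each combination. The design text calls the control a vehicle, while the labels say only control; the 4 IgG samples, for which the labels give the same antibody catalogue number as for H3K27me3, were not used here.

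H3K27me3 is placed by Polycomb repressive complex 2 (PRC2) and marks genes held silent, among them many regulators of development that a differentiated cell does not use. PRC2 is known to settle at CpG islands and to spread from them, and methylated domains can lie away from any gene body, over intergenic DNA, non-coding RNA genes and distal regulatory elements. Lysine succinylation is an acyl modification fed by succinyl-CoA, found on histones as well as on metabolic enzymes.

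As a check of the mark, no library had an H3K27me3 peak over any of 12 hepatocyte genes or 10 housekeeping genes, whereas 33 of 39 HOX genes, the textbook Polycomb targets, were overlapped in all 4. The number of H3K27me3 peaks was 19133 and 5813 in the control libraries and 9985 and 5531 in the succinate libraries. Read depth is unknown from peak lists. Deposited signals were whole multiples of a unit that differed by library, called a step, so heights are given in steps or as the percentile of a region's highest signal among the 4169 shared regions of the same library, called its rank.

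The genes most plainly inside intergenic regions were microRNAs, and the mature sequences of those at the most strongly marked or most familiar sites are printed first because they show which products are encoded there; their expression was not measured. A total of 20 intergenic regions held 25 RefSeq miRNA genes, of which 21 had a sequence in the RefSeq table of GRCh38.p14, with 26 distinct mature miRNAs. In all, 698 miRNA genes lie outside protein-coding gene bodies, and such genes cover 0.00678% of the regions' bases against 0.00312% of outside bases. Each sequence runs 5′ to 3′ and its seed, bases 2 to 8, is in capitals. miR-182, miR-96 and miR-183 form a cluster known for its role in sensory cells, on the minus strand at chr7:129770447-129770470, chr7:129774739-129774761 and chr7:129774967-129774988 for the arms shown. miR-129-1-3p lies on the plus strand at chr7:128207920-128207941, miR-3663-3p on the minus strand at chr10:117167695-117167717 and miR-3141 on the minus strand at chr5:154596045-154596063.
hsa-miR-182-5p: uUUGGCAAugguagaacucacacu
hsa-miR-96-5p: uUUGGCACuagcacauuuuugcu
hsa-miR-183-5p: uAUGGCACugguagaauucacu
hsa-miR-129-1-3p: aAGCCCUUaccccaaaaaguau
hsa-miR-3663-3p: uGAGCACCacacaggccgggcgc
hsa-miR-3141: gAGGGCGGguggaggagga
No 2 of the 26 distinct mature miRNAs had the same 7-base seed, so these 26 did not belong to a single seed family. Mature miRNAs of the same name were counted once, so copies of the same miRNA could not show here. Genes without a sequence were left out, among them MIR124-1 and MIR124-3. Among the miRNAs with a sequence in the table, miR-8071 came from 2 genes, MIR8071-1 and MIR8071-2, in 2 separate regions of the immunoglobulin heavy chain locus.

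The region of the miR-182, miR-96 and miR-183 cluster, chr7:129768004-129810513, lay 10.9 kb from NRF1, which encodes a transcription factor of mitochondrial genes. Its highest signal was 218 and 229 steps in the control libraries and 232 and 327 steps in the succinate libraries, and peaks covered 84.9%, 80.6%, 77.6% and 100% of its width in the same order. The coverage of the treatments overlapped. The 4 highest signals stood within 31 bp of each other, 12200 to 12231 bp from the nearest hairpin, that of miR-183, so the most strongly tagged place was not at the miRNA genes themselves.

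The region of MIR129-1, a brain-rich miRNA, lay 16.6 kb upstream of LEP, the leptin gene, with highest signals of 249 and 297 steps in control and 314 and 621 in succinate. Its 4 places of highest signal fell within 2 bp, at 2039.5 to 2041.5 bp from the hairpin. MIR3663 sat in a region 7.63 kb upstream of VAX1, a homeobox gene of ventral forebrain and eye, with highest signals of 410, 457, 442 and 945 steps and places again within 2 bp. These 2 regions were marked at nearly the same base in every library. MIR3141 sat in a region between HAND1, a bHLH factor of heart and extraembryonic tissue, and LARP1, an RNA-binding regulator of ribosomal protein mRNAs, with highest signals of 403, 520, 426 and 771 steps.

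Both miR-124 genes found here encode the best-known neuronal miRNA. MIR124-3 lay in a region 3.30 kb downstream of YTHDF1 on chromosome 20, with highest signals of 281 and 290 steps in control and 614 and 894 in succinate. Its rank was 89.0 and 87.1 in control against 98.2 and 97.5 in succinate, so the treatments did not overlap. The highest signal stood 22996 and 22898 bp from the hairpin in control but 2589.5 and 2590.5 bp from it in succinate. The ranks of this region thus compare different places. MIR124-1 lay in a region of chromosome 8 at 111 kb from TNKS, where ranks were 86.0 and 23.3 in control against 36.2 and 70.5 in succinate and overlapped. Over the 20 miRNA regions the mean rank ran from 2.25 (MIR650, in the immunoglobulin lambda locus) to 96.6 (MIR3663).

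**Figure D1:**
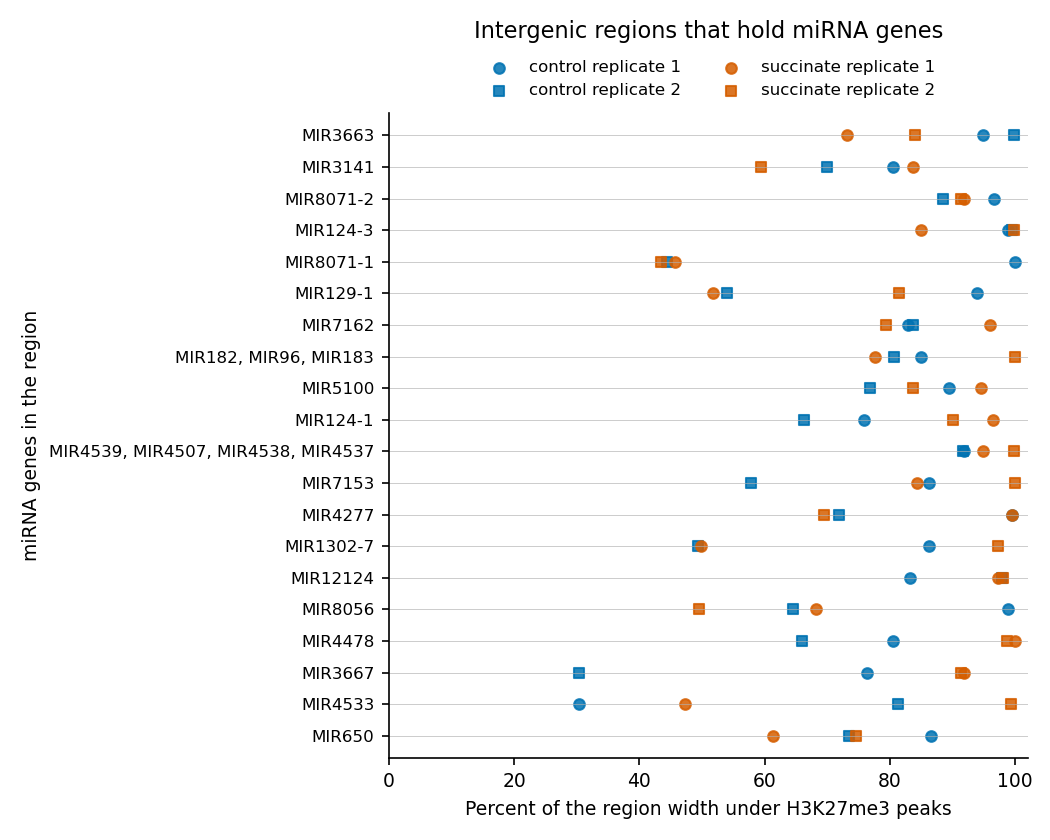
Percent of the width of each of the 20 intergenic regions with miRNA genes that lay under H3K27me3 peaks, with 1 point per library (blue, control; orange, succinate; circles, replicate 1; squares, replicate 2), ordered from the highest mean rank (MIR3663, 96.6) to the lowest (MIR650, 2.25). Cover differed as much between replicates as between treatments in many regions, for example 30.4% and 81.3% in the control libraries at MIR4533.

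A second set of sequences shows start sites that had the highest H3K27me3 signal of their region within 1 kb in all 4 libraries. RefSeq promoter windows run from 250 bases before to 50 after a gene's start. Of these, 362 windows of 324 genes lay in 276 intergenic regions, and all belonged to lncRNA genes. A whole window of a protein-coding gene could not lie in such a region, since its last 50 bases are in the gene body. In 14 regions, all 4 places of highest signal lay within 1 kb of such a start, and 15 windows of 14 lncRNA genes met this condition. The 4 of these windows that were rich in CpG, taken as an observed over expected CpG ratio of at least 0.6 and a GC content of at least 50%, are printed with 1 CpG-poor window for contrast. CpG dinucleotides, the letters CG, are in capitals, and their number is the same on both strands. The windows are, on GRCh38.p14, MIR9-2HG (chr5:88690992-88691291, minus strand), the host transcript of a neural miR-9 gene; LOC124903142 (chr13:28531090-28531389, plus strand); LOC124908016 (chr2:240672715-240673014, minus strand); LINC00900 (chr11:115760151-115760450, minus strand); and the CpG-poor LOC124905143 (chr22:49372708-49373007, plus strand).
MIR9-2HG: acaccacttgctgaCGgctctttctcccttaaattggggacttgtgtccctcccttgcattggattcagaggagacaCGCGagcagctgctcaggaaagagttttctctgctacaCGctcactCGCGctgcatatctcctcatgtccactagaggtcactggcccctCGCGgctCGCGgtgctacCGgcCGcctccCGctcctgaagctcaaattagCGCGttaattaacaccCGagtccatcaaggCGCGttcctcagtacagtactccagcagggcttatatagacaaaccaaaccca
LOC124903142: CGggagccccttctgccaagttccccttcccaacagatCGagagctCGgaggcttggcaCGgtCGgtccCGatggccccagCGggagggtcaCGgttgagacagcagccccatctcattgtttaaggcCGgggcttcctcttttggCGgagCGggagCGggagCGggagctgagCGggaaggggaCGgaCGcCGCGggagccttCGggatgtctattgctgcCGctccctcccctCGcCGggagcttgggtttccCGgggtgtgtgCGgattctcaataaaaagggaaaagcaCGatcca
LOC124908016: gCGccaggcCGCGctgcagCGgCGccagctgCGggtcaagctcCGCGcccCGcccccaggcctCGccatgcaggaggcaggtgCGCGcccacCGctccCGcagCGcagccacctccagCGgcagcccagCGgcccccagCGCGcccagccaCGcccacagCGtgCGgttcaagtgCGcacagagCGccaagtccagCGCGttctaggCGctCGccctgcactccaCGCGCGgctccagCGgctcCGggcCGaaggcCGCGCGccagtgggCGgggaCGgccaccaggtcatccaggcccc
LINC00900: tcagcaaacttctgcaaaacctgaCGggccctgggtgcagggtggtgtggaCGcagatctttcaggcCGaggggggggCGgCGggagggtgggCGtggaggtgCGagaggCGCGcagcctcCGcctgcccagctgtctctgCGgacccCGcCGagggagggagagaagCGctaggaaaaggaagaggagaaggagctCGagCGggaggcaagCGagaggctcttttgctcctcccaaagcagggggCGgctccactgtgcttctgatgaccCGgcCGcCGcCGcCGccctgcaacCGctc
LOC124905143: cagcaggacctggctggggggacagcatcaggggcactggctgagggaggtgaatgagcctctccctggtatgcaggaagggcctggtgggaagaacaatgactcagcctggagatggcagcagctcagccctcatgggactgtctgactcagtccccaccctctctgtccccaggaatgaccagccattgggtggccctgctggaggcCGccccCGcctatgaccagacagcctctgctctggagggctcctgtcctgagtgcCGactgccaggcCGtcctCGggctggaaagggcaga
The window of MIR9-2HG held 18 CG, and the farthest of its 4 places of highest signal was 140.0 bp from the start. The region around it, chr5:88682383-88695772, lay nearest to MEF2C, a factor of muscle and neuron development, and reached 265 and 273 steps in control and 286 and 569 in succinate. LOC124908016 held 39 CG, LOC124903142 held 25 and LINC00900 held 24, with mean ranks of 44.9, 60.2 and 22.8 beside 84.9 for MIR9-2HG. LOC124905143 held only 5 CG, yet its places were all within 125.0 bp of its start. Its region had a mean rank of 22.4, close to that of LINC00900, with 110 and 115 steps in control and 139 and 194 steps with succinate. At LOC124903142, LOC124908016 and LINC00900 the farthest place was 421.5, 511 and 621 bp from the start, outside the printed window. In these regions the highest signal thus lay within 1 kb of a start both with and without a dense run of CpG.

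Across all windows, CpG content depended on what the regions were set against. Of the 362 lncRNA windows in intergenic regions, 14.4% were rich in CpG, against 23.5% of the 8821 lncRNA windows outside protein-coding gene bodies. Among windows at least 10 kb from a protein-coding gene the order turned, with 14.0% of 344 windows in intergenic regions and 9.41% of 6268 windows outside. Median GC content was higher in the regions in both comparisons, at 55.3% against 49.0% and at 55% against 45.7%. Of all 35116 windows in the table, 46.9% were rich in CpG. These include 22198 windows of protein-coding genes, 60.0% of them rich in CpG, which could not lie in an intergenic region. Places of highest signal lay within 1 kb of a start in 2.88% to 3.35% of regions per library, and 2.23% of the regions' bases lay that close.

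The intergenic regions were 2441 to 49967 bp wide with a median of 20634 bp (quartiles 15090 and 29312) and covered 29.3 Mb in all, out of 1824 Mb, or 59.1%, of chromosome bases outside protein-coding gene bodies. The widest inside the 50 kb limit measured 49967 bp near BUD13, 49940 bp near MKI67 and 49777 bp near TAFA5. Just outside the limit stood 50051 bp near SDK2, 50121 bp near AJAP1 and 50127 bp near MYCN. Widths ran on without a gap at the limit.

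Intergenic regions lay nearer to genes than bases outside protein-coding gene bodies taken as a whole. Stretches where no peak could be called, such as assembly gaps, were not removed from those bases. They also include 54.6 Mb of chromosome Y, which held no region. The median distance from a region's nearer edge to the closest protein-coding gene body was 36.9 kb (95% interval 33.8 to 41.1 kb over regions, for the sampling of regions only). Measured from the midpoint, which is comparable with single bases, the median was 48.6 kb, against 129 kb for all outside bases. Midpoints were within 100 kb of a gene in 74.3% of regions and 45.1% of bases, and within 500 kb in 99.5% and 76.0%. Within 10 kb of a gene the order turned, with 2.72% of midpoints and 12.3% of bases, since a wide region cannot have its midpoint close to a gene it does not touch.

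**Figure D2:**
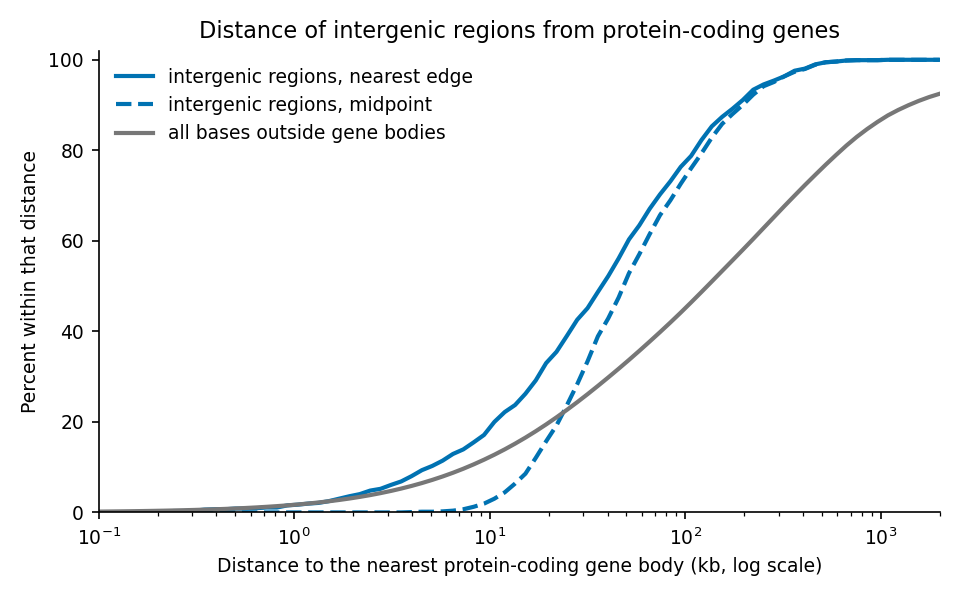
Cumulative percent of the 1285 intergenic regions (blue; solid, nearer edge; dashed, midpoint) and of all bases outside protein-coding gene bodies (grey) by distance to the nearest protein-coding gene body, on a log scale in kb. The median midpoint is at 48.6 kb and the median base at 129 kb, while the midpoint curve lies below that of bases at short distances.

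Edges came within 10 kb of a gene in 241 regions, or 18.8%. Of these 241, 114 (47.3%) lay on the side of the gene's 3′ end, where 37.6% of bases at that distance lie, and 77 (32.0%) lay upstream of its start, where 41.0% of bases lie. For the other 50 the strand is not given in the tables used. Over all 1285 regions, 513 (39.9%) lay upstream, as did 39.2% of bases, and 509 (39.6%) lay downstream, as did 37.3% of bases.

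The nearest gene was often itself marked. In 437 regions (34%) the nearest protein-coding gene body was overlapped by H3K27me3 peaks in all 4 libraries, while such genes are nearest to 8.81% of outside bases and make up 12.3% of the 20033 protein-coding genes. The gap to the next shared region had a median of 15.5 kb, and 345 regions (26.8%) had one within 5 kb. That neighbour was another intergenic region for 211 of the 345, a narrower region at a gene for 60 and a broad region for 74. Intergenic regions were thus often set in a row with other marked stretches.

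Genes for developmental transcription factors were the nearest gene of 108 intergenic regions (8.40%, 95% exact binomial interval 6.95 to 10.1, for sampling of regions only), whereas 4.26% of outside bases have such a gene as their nearest. The 7 lists of factors behind this count held 445 genes, of which 62 were nearest to a region, and the nearest gene was marked in 64 of the 108 cases. Regions near each other share a nearest gene, so the 108 are not independent.

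Among the factor families, basic helix-loop-helix genes, which set neural, muscle and mesodermal fates, were nearest to 19 regions, 4.10 times their share of bases. Regions near TWIST2, a mesenchymal factor, reached 233 and 223 steps in control and 248 and 461 in succinate in one case, and 198, 214, 238 and 452 steps in another 23.4 kb downstream of the gene. A region 54.7 kb from OLIG1, a factor of oligodendrocytes, reached 225, 178, 206 and 369 steps. The other family members with high signal included BHLHE23, a neural factor, whose region on chromosome 20 holds the non-coding genes HAR1A and HAR1B.

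Homeobox genes were nearest to 38 regions, 1.96 times their share of bases, spread over 25 genes. A region 36.7 kb downstream of UNCX, a factor of the axial skeleton, reached 228 and 267 steps in control and 326 and 431 in succinate. The clustered HOX genes contributed little, since HOXB1, HOXC13 and HOXC4 alone were the nearest gene of any region while 33 of 39 HOX genes were marked in their own bodies. IRX3, a homeobox gene whose distal elements lie in its neighbour FTO, had 5 regions at 23.2 to 211 kb, and its own body was not marked in all 4 libraries.

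Forkhead genes were nearest to 12 regions, 2.49 times their share, and in 11 of the 12 the nearest gene was marked. Most lay far off, at a median of 101 kb, with regions 196 kb from FOXF1, a factor of lung and gut mesenchyme, and 36.9 kb from FOXF2, its close relative. SOX genes were nearest to 8 regions from 3 genes, namely SOX1, SOX6 and SOX9, which act in neural, cartilage and sex determination programmes. T-box genes were nearest to 3 regions, 2 of them near TBX5, a heart and forelimb factor. GATA genes were nearest to 2, near GATA2 and GATA4. The 26 regions near other developmental factors, at 1.55 times the share of bases, included regions 22.2 kb upstream of BCL11A, a factor of fetal globin silencing and B cells, and 257 kb downstream of IRF8, a myeloid factor.

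Signalling genes were nearest to 29 regions from 17 genes, 1.34 times their share of bases, and the nearest gene was marked in 22 of them. They included INHBB, an activin subunit, with 248 and 278 steps in control and 313 and 534 in succinate at 61.4 kb, and BMP7, a bone morphogenetic protein, at 208 kb. FGF19, the gut hormone that restrains bile acid synthesis, and WNT11 had regions 4.67 and 26.3 kb away. Effector gene families stood on the other side of the scale. Neurotransmitter receptors were nearest to 11 regions (0.68 times their share), potassium channels to 10 (0.73), cadherins and protocadherins to 6 (0.24), numbered zinc finger genes to 19 (0.66) and olfactory receptors to 1 (0.041). Solute carriers, with 26 regions, stood at 1.54 times their share, and keratins, with 3, at 1.75.

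Hepatocyte genes were nearest to 3 regions and housekeeping genes to 3. These short lists of 12 and 10 genes are nearest to only 0.0501% and 0.0235% of outside bases, so the counts were 4.66 and 9.95 times their shares, the highest ratios of all lists, on 2 genes each. APOB, which encodes the main protein of very-low-density lipoprotein, had 2 regions at 5.80 and 37.8 kb. The farther one reached 240 and 248 steps in control and 311 and 547 in succinate and ranked 80.7 to 88.8, while the nearer one ranked 14.3 and 29.0 in control against 62.0 and 35.8 in succinate. FOXA2, a liver pioneer factor, had 1 region at 113 kb with 186, 231, 252 and 416 steps. Of the housekeeping genes, ACTB had 1 region at 5.27 kb with 82 and 84 steps in control and 146 and 230 in succinate, and YWHAZ had 2. H3K27me3 peaks thus came within a few kb of APOB and ACTB, whose bodies carried none.

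The 1285 regions had 868 distinct nearest genes, and 232 of these were shared by 2 or more regions. In 91 places, 3 or more neighbouring regions with the same nearest gene followed one another, and these runs held 367 regions, or 28.6%. The longest were 10 regions near TAFA5, a secreted chemokine-like protein, over 1062 kb of chromosome 22, and 10 near ZMIZ1, a transcriptional co-regulator, over 511 kb of chromosome 10. BRD1, a bromodomain scaffold protein, had 9 over 487 kb, next to the run of TAFA5. HS6ST1, a heparan sulfate sulfotransferase, and TMEM121 had 8 each. Regions covered 25.2% of the span at TAFA5, 50.4% at ZMIZ1 and 48.1% at BRD1.

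Some of the 91 runs lay beside genes that steer cell fate, and those named here were picked after their values were seen. Other runs of 7 regions lay near AJAP1, MKI67 and TCERG1L, and runs of 6 near SULF2, BUD13, B3GAT1 and C8orf90. The share of runs beside genes of cell fate was not counted. SHH, the Sonic hedgehog morphogen, had 6 regions 160 to 377 kb upstream of it, which together covered 60.0% of a 254 kb span. The region closest to SHH reached 146 and 159 steps in control and 242 and 338 in succinate, and its ranks were 49.4 and 49.0 in control, below 67.7 and 65.3 in succinate. DLL1, a Notch ligand, had 7 regions at 47.3 to 230 kb that covered 65.0% of their span. ID2, an inhibitor of bHLH factors, had 6 regions at 129 to 701 kb, of which the farthest overlapped LINC00298. SOX1, which keeps neural progenitors undifferentiated, had 5 on both of its sides.

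The region farthest from any protein-coding gene was 1049 kb upstream of ACO1 on chromosome 9, with 95 and 103 steps in control and 123 and 139 in succinate. Regions near ID2 at 701 and 649 kb, near LOC105375816 at 639 kb and near MKI67, the gene of the Ki-67 proliferation antigen, at 600 kb came next. These 5 had mean ranks of 6.34 to 40.4, below the middle of the shared regions.

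The most strongly marked region lay on chromosome 11 at chr11:10928119-10942301, 70.1 kb upstream of ZBED5, a gene derived from a transposase, and reached 720 and 757 steps in control and 965 and 1664 in succinate. Its rank was above 99.7 in every library, and its 4 places of highest signal fell within 1 bp. A region between TCF7L2, the Wnt pathway factor, and HABP2, a plasma protease, came next with 634, 593, 688 and 1168 steps. A region between NOG, the BMP antagonist noggin, and C17orf67 followed with 486, 543, 566 and 917. Others among the highest 10 lay near TEX29, ODC1 (the first enzyme of polyamine synthesis), GTSF1L, VAX1, DLG5, LARP1 and TMEM121.

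TMEM121 is nearest only because RefSeq does not class immunoglobulin segments as protein-coding genes. In all, 10 regions (0.778%) overlapped antigen receptor gene segments, 8 on chromosome 14 and 1 each on chromosomes 22 and 7. The share of outside bases in such segments was not counted, so this count has no background beside it. The regions at IGHG1, IGHG3, IGHG4, IGHE and the pseudogene IGHGP had mean ranks of 91.2, 72.5, 90.1, 62.2 and 93.2, while those over the heavy chain joining and diversity segments had 52.4 and 44.7. On chromosome 14 another covered the T cell receptor alpha constant gene with 131 and 157 steps in control and 189 and 271 in succinate. On chromosome 7 a region of 20470 bp covered the T cell receptor beta joining and constant segments with 167, 221, 215 and 259 steps. The alpha and beta regions had mean ranks of 46.4 and 60.3, and the region in the immunoglobulin lambda locus on chromosome 22 had 2.25. Lymphocyte receptor loci, silent outside lymphocytes, thus held regions that ranked from low to high.

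Of the non-coding gene classes, lncRNA genes and pseudogenes covered nearly the same share of the regions' bases as of outside bases, while miRNA genes covered 0.00678% of the regions' bases and 0.00312% of outside bases. lncRNA genes overlapped 528 regions (41.1%), but they cover 19.3% of the regions' bases and 20.2% of all outside bases. Pseudogenes overlapped 189 regions (14.7%) and covered 2.74% of their bases against 2.50% outside. A total of 611 regions (47.5%) overlapped no RefSeq gene of any kind.

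The place of the highest H3K27me3 signal repeated between libraries in part of the regions. All 4 places lay within 500 bp of each other in 386 regions (30.0%) and within 5 bp in 64 (4.98%), and the median span of the 4 places was 2816.5 bp. The 64 regions with places within 5 bp had a median of mean ranks of 72.8, against 36.1 for the others. The median distance between the places was 165.0 bp for the control pair and 167.0 bp for the succinate pair, and 222.5 to 412.5 bp for pairs across treatments. Regions with repeated places were thus the more strongly marked. Within 500 bp, replicates of a treatment shared places more often than libraries across treatments, in 55.8% and 55.7% of regions against 51.0% to 53.5%. Within 5 bp this order did not hold, with 22.3% for the control pair, 20.5% for the succinate pair and 17.9% to 22.4% across treatments.

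**Figure D3:**
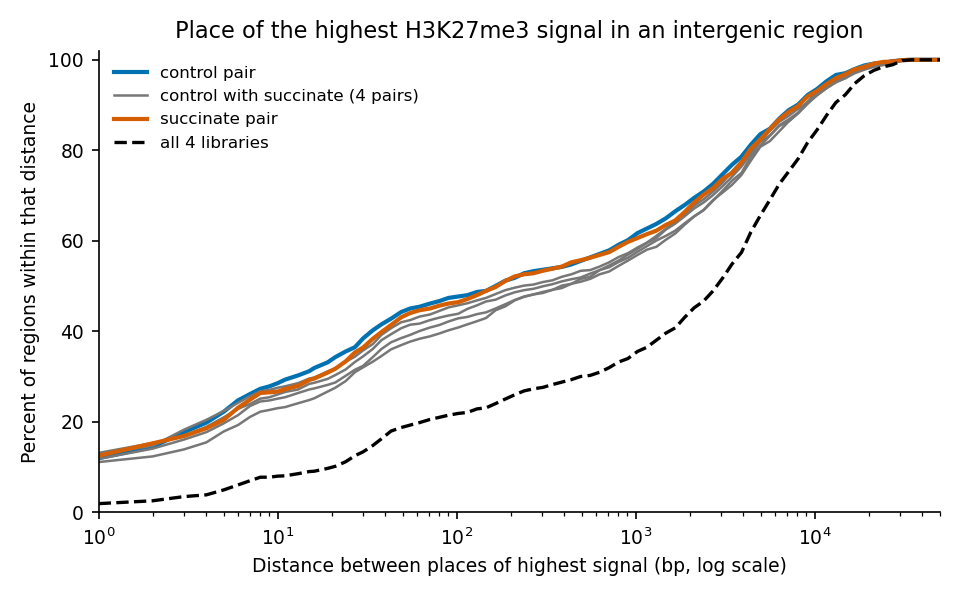
Cumulative percent of the 1285 intergenic regions by the distance in bp, on a log scale, between places of highest H3K27me3 signal in pairs of libraries (blue, control pair; orange, succinate pair; grey, the 4 pairs across treatments) and by the span of all 4 places (black, dashed). The dashed curve reaches 30.0% at 500 bp, where the pairs reach 51.0% to 55.8%.

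Between treatments, H3K27me3 peaks covered 82.0% and 71.2% of the bases of intergenic regions in the control libraries and 84.7% and 83.0% in the succinate libraries. The groups did not overlap, but the lower of the succinate values was within 1 percentage point of the higher control value. The difference of mean log2 cover was 0.13, beside a pooled SD of 0.10 (n = 2 per treatment). With the regions found again without control replicate 2 the difference was 0.08, and without control replicate 1 it was 0.24. Per region, both succinate libraries had more cover than both controls in 410 regions (31.9%), beside 34.5% of all 4169 shared regions, and less in 84 (6.54%), beside 7.08%. The regions followed the background in both directions.

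The largest gains in cover were near MYEOV, MRPS23 and AJAP1. At MYEOV, on chromosome 11, peaks covered 49.7% and 33.2% in control against 100% and 97.1% in succinate, a log2 difference of 1.28. The largest loss was near ZNF706 on chromosome 8, with 81.5% and 98.6% in control against 40.8% and 29.2% in succinate, a log2 difference of -1.38. Of the 1285 regions, 14 had a log2 difference above 1 and 2 had one below -1. The same was not counted over all shared regions, so these counts have no background beside them. The median log2 difference was 0.097 in intergenic regions and 0.105 over the 4169 shared regions. The regions named here were selected for their size of difference from 1285, with 2 libraries per treatment.

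Ranks reordered more between treatments than between replicates. Across the 1285 regions, which share libraries, Spearman's rho of the highest signal was 0.87 for the control pair and 0.88 for the succinate pair, and 0.76 to 0.77 across treatments. The rank was higher in both succinate libraries in 323 regions (25.1%), beside 27% of all shared regions, and lower in 363 (28.2%), beside 28.7%. Leaving out control replicate 2 or succinate replicate 2 raised the first count to 485 and 486, since fewer libraries had to be in order. The share of all shared regions under that looser rule was not counted.

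The direction of these changes went with the chromosome. On chromosome 22, 29 of 45 regions ranked higher in both succinate libraries and 1 lower, and the median rank was 26.1 in each control library and 41.9 and 38.9 in the succinate libraries. On chromosome 17 the counts were 26 and 2 of 47, and on chromosome 9 they were 18 and 3 of 37. On chromosome 5 the order was opposite, with 2 of 43 higher and 28 lower, and median ranks of 45.3 and 51.5 in control against 28.6 and 32.0 in succinate. Chromosomes 20 (15 higher, 38 lower), 2 (32 and 69) and 11 (12 and 28) also leaned lower.

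The lean was not particular to intergenic regions. Among the other shared regions, 42 of 77 on chromosome 22 ranked higher and 3 lower, 70 and 21 of 164 on chromosome 17, and 7 and 75 of 118 on chromosome 5. With the mean signal per covered base in place of the highest signal, an alternative chosen after seeing the data, 33 regions on chromosome 22 were higher and 1 lower, and 1 on chromosome 5 was higher and 29 lower. Over the 22 autosomes, Spearman's rho between the median rank difference of a chromosome's regions and its genes per Mb was 0.30. The part of gene density in the pattern was not tested.

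**Figure D4:**
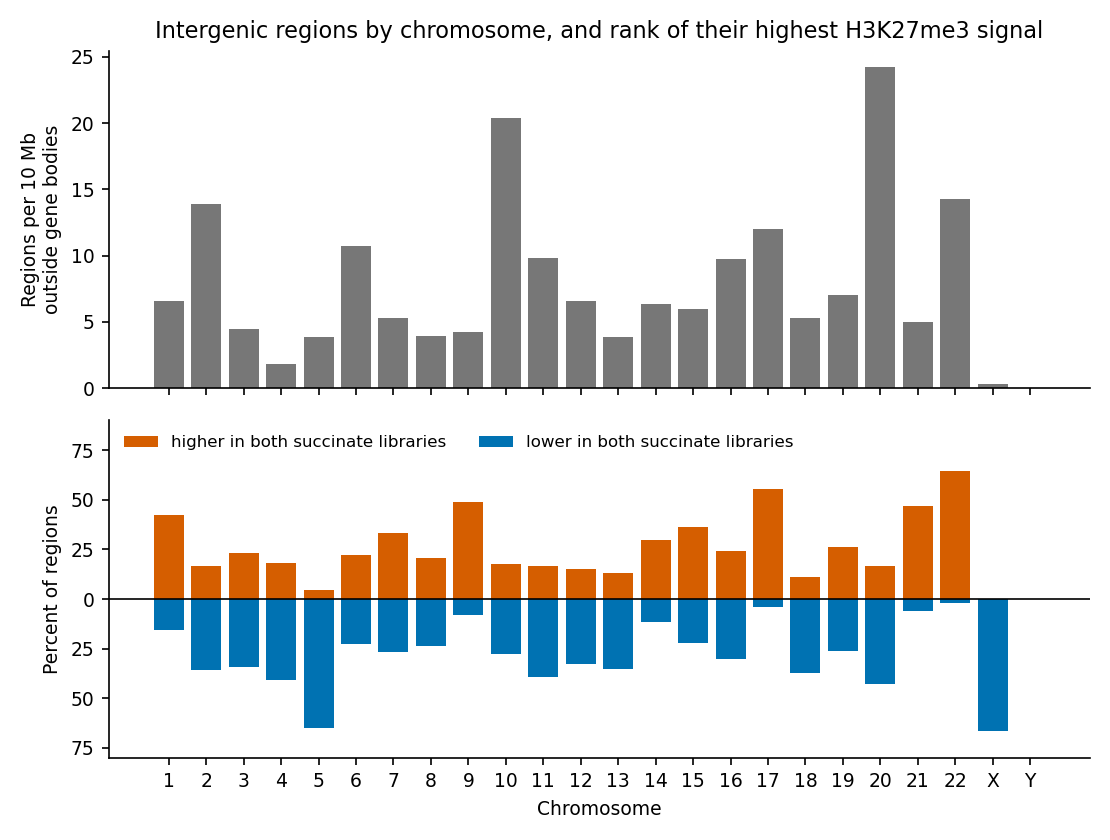
Top, intergenic regions per 10 Mb of bases outside protein-coding gene bodies, by chromosome. Bottom, percent of a chromosome's intergenic regions whose highest H3K27me3 signal ranked higher (orange, above 0) or lower (blue, drawn below 0) in both succinate libraries than in both control libraries. Chromosome 22 has 29 of 45 regions higher and chromosome 5 has 28 of 43 lower, and X rests on 3 regions.

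The regions with the largest single shifts in rank were picked after their values were seen. A region 2.95 kb from PDGFB, a platelet growth factor on chromosome 22, ranked 9.50 and 17.7 in control against 68.2 and 61.0 in succinate, with 90 and 112 steps against 244 and 314. A region 2.52 kb from VEGFA, the angiogenic growth factor on chromosome 6, ranked 15.7 and 5.30 in control against 50.6 and 76.2 in succinate. In the other direction, a region 9.28 kb upstream of IL9, a cytokine gene on chromosome 5, ranked 68.9 and 75.5 in control against 22.8 and 21.8 in succinate, although its cover was 82.0% and 56.0% in control against 92.5% and 90.6% in succinate. A region on chromosome 18 that overlaps LINC-ROR, a lncRNA known from pluripotent cells, ranked 67.7 and 61.1 in control against 13.0 and 18.0 in succinate.

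The regions were unevenly spread over chromosomes. There were 24.2 per 10 Mb of outside bases on chromosome 20, 20.4 on chromosome 10, 14.3 on chromosome 22 and 13.9 on chromosome 2, against 1.83 on chromosome 4 and 0.285 on X, which held 3 regions. Across the 22 autosomes, density had a Spearman's rho of 0.68 with genes per Mb and of 0.28 and 0.048 with the Ksu cover of outside bases in the control libraries. Chromosomes 2, 6, 10 and 20 together hold 193, 107, 142 and 89 regions.

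Ksu was the readout that did not enter the choice of regions. Ksu peaks covered 4.30% and 6.92% of the bases of intergenic regions in the control libraries and 13.7% and 17.3% in the succinate libraries. Over all bases outside protein-coding genes the same libraries covered 2.69% and 6.26% in control against 5.67% and 9.64% in succinate. On the log2 scale the regions stood 0.68 and 0.14 above those bases in control and 1.27 and 0.84 above them in succinate. The difference between treatments was 0.65 with a pooled SD of 0.34 (exact two-sided permutation test over 6 arrangements, p = 0.333, the smallest it can give with n = 2 per treatment).

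This difference depended on which bases the regions were set against. Against the 50 kb on both sides of each region, Ksu cover was 0.46 and 0.28 above in control and 0.53 and 0.25 above in succinate on the log2 scale, a difference of 0.02 (exact permutation p = 1, with overlapping groups). The surroundings of the regions, with 3.13% and 5.72% in control against 9.50% and 14.6% in succinate, thus moved as much as the regions did. Against all chromosome bases the difference was 0.47 (exact permutation p = 0.667). Ksu libraries also differed in number of peaks, from 76702 to 629903, and with 76702 peaks from each the difference against outside bases was 1.24. Without control replicate 2 it was 0.38.

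Per region, Ksu cover was higher in both succinate libraries than in both controls in 829 regions (64.5%), beside 66.3% of all shared regions, and lower in 7 (0.545%), beside 0.528%. A Ksu peak in both succinate libraries and neither control library was found in 80 regions (6.23%), beside 4.63% of shared regions, and none had the reverse pattern, beside 0% of shared regions. The widest of the 80 lay near ZNF532, with cover of 11.2% and 18.5% in succinate, near IQSEC1 (8.13% and 12.1%) and near BOD1 (11.3% and 19.6%).

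Intergenic regions carried slightly more Ksu than the 2157 narrower shared regions at genes, at 3.64% and 6.18% in control against 11.7% and 16.2% in succinate. The log2 difference was 0.24, 0.16, 0.23 and 0.09 in the 4 libraries, with a mean of 0.18 and an SD of 0.07, higher in 4 of 4 libraries (exact two-sided paired permutation test, p = 0.125, the smallest possible with 4 libraries). Set against all bases of the same chromosomes, gene bodies included, the mean difference was 0.09.

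**Figure D5:**
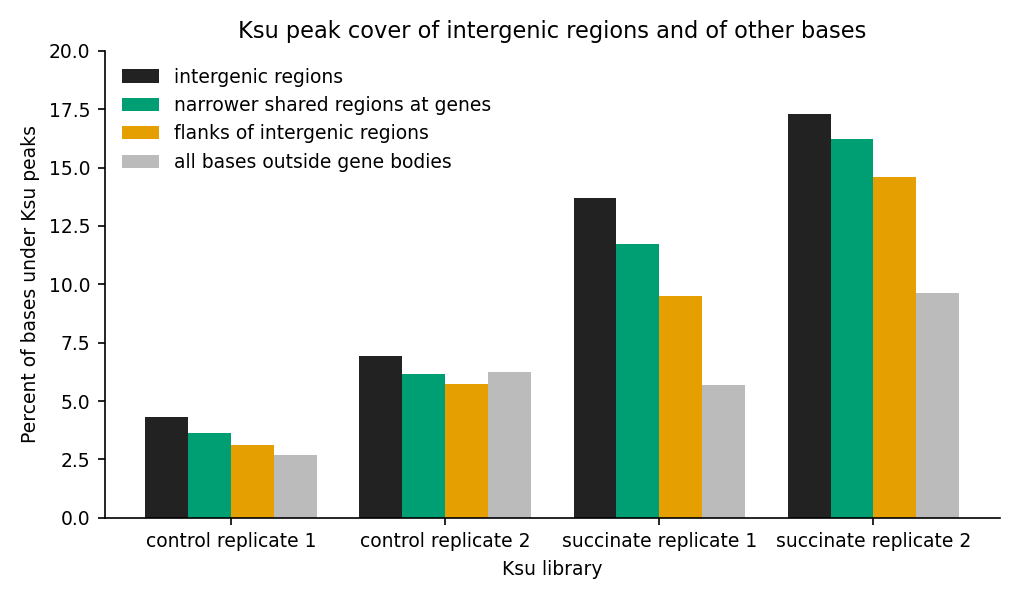
Percent of bases under Ksu peaks in each of the 4 Ksu libraries for intergenic regions (black), narrower shared regions at genes (green), the 50 kb flanks of intergenic regions (orange) and all bases outside protein-coding gene bodies (grey). Intergenic regions stand highest in each library, from 4.30% in control replicate 1 to 17.3% in succinate replicate 2, and the flanks rise with them.

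Where the H3K27me3 place repeated, Ksu could be read around it. In the 386 regions with the 4 places within 500 bp, the 1 kb around the place had Ksu cover of 7.05% and 8.02% in the control libraries and 21.9% and 18.6% in the succinate libraries. The cover of the whole regions was 4.06% and 6.56% in control against 13.5% and 17% in succinate. The ratio of the 1 kb to the whole region was 1.73 and 1.22 in control against 1.62 and 1.09 in succinate, above 1 in each of the 4 libraries and overlapping between treatments. In each library Ksu cover was thus higher at the place of highest H3K27me3 signal than over the whole region.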

How the data were processed

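CUT&Tag peak lists of 8 of the 12 samples were used, 2 biological replicates for each antibody and treatment. SEACR and hg38 are named per the submitters' processing notes, and the stringent mode per the names of the deposited lists. Each list belongs to 1 library. The aligner, the scaling and the threshold are not given in the sources used here. The deposited signal per peak (total, highest, and the place of the highest) was in whole multiples of a step that differed by library, within 0.05 of a whole number for 100% of values. Without read counts the depth and its precision are unknown, and intervals printed cover the sampling of regions only.

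Peaks were merged where they overlapped, on 24 chromosomes, and compared with gene extents in a RefSeq table of GRCh38.p14; the strand came from the RefSeq promoter table. The presence minimum was 1 bp. Backgrounds were counted exactly over all bases outside protein-coding gene bodies. Assembly gaps and other stretches where no peak could be called were not removed from them. Chromosome length was taken as the last end of a peak or gene. Within-library ranks were percentiles among the 4169 shared regions. Ksu cover was compared between treatments with an exact permutation test on log2 ratios. Regions named were the 10 with the highest rank, the 5 farthest, the 5 widest and the 5 just outside the limit, those with miRNA genes, the longest runs, up to 4 per gene list and the 3 with the largest differences; others, such as the runs at SHH, DLL1, ID2, IRX3 and SOX1, were picked after their values were seen. The members and the 17 gene lists were chosen with earlier results of these data known. Interval code was checked on simulated peaks. Python 3.11.15, pandas 2.3.3, numpy 2.4.6 and scipy 1.17.1 were used. Alternatives were stricter peak sets, other width limits, other expectations, libraries left out in turn, and a block by replicate number.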

Additional observations from a re-analysis of the deposited data

How the results depend on the processing

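Of 85 alternatives to 8 results, 78 were classed as the same and 7 as moved. Counts, percents and distances could not reverse, so direction was at stake only for the differences in cover, which kept their sign. For the Ksu difference between treatments under other peak sets or expectations, the same meant only the same sign, as with 0.02 against flanks. For the Ksu difference from regions at genes it also meant only the same sign, because the paired test could not pass 0.05. The limits for counts and for H3K27me3 cover were wide. Counts of 1760 against 1285 regions, and differences in cover of 0.24 against 0.13, were classed as the same. The number of regions was 470 with the top 50% of each library's peaks by total signal, 614 under 20 kb, 611 without any RefSeq gene and 584 with a common floor of total signal, which was added after seeing the data. With that top 50%, 6.81% of regions had a developmental factor nearest. Leaving out 1 library at a time gave 1318 to 1760 regions, 8.0% to 8.27% near developmental factors, median distances of 35.2 to 38.1 kb, differences in H3K27me3 cover of 0.08 to 0.24, and Ksu differences of 0.38 to 0.92 between treatments and 0.16 to 0.21 from regions at genes. Without 1 library, 441 to 486 regions ranked higher and 500 to 527 lower in succinate, an alternative added after seeing the data. Those counts have no share of all shared regions beside them. Among the Ksu alternatives, the difference between treatments was 0.02 against flanks and 1.62 with a common floor. It was 0.98 for regions outside chromosomes 2, 6, 10 and 20, still set against outside bases of all chromosomes. The 0.98 and 1.62 came from alternatives added after seeing the data. With the common floor, regions at genes had more Ksu than intergenic regions in 1 of 4 libraries (exact paired p = 0.25). With the replicate number as a block the treatment difference stayed 0.65 (exact p = 0.5, the smallest possible); with 2 pairs, the numbers were not shown to pair the samples. With 2 libraries per treatment the exact permutation test could not pass 0.05.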
